A study of Mus musculus with 8 samples.

Results

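Macrophages that lacked the mineralocorticoid receptor were compared with floxed control macrophages after both had been kept with corticosterone, the main glucocorticoid of mice. The comparison uses 4 of the 8 samples of the series, which are the 2 knockout and the 2 control samples with hormone. The other 4 samples, 2 of each genotype without hormone, serve only to show where the hormone-treated comparison differs. Control cells carried the floxed receptor alleles alone, labelled MR fl / fl. Knockout cells carried the same floxed alleles together with LysM cre, in which the lysozyme M gene drives the recombinase in myeloid cells. A control that carries the recombinase without the floxed alleles was not analysed here. Every sample is labelled as peritoneal macrophages of male C57BL6/J mice, and no age is given in the labels. The cells were drawn 4 days after thioglycolate, an irritant given at 3% into the peritoneal cavity, which recruits blood monocytes there. They were cultured with 10% fetal bovine serum, selected by adherence and held for 24 h with 1 µM corticosterone or without it. Each sample was pooled from experiments done in triplicate. The p-values below therefore measure the spread between 2 pooled samples per group, and part of that spread may be technical.

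The mineralocorticoid receptor, encoded by Nr3c2, is a nuclear hormone receptor that binds aldosterone and, with similar affinity, corticosterone. In the kidney tubule the enzyme encoded by Hsd11b2 inactivates corticosterone and so keeps the receptor for aldosterone. Macrophages also carry the glucocorticoid receptor, Nr3c1, which recognises the same DNA element, and the mineralocorticoid receptor of myeloid cells is known for its part in inflammatory activation and in cardiac and vascular fibrosis.

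RNA was measured on Affymetrix arrays of 45101 probe sets, and 18193 genes were tested, each by its brightest probe set. Values are log2 intensities, so a difference of 1 unit is a 2-fold change of signal. The replicates of the hormone-treated groups were close, with a median absolute difference between replicates of 0.0716 log2 units in control and 0.0773 in knockout cells. One array of the series, control untreated replicate 2, stood apart, with a median correlation with the others of 0.919. Its Actb probes near the 3′ end exceeded those near the 5′ end by 2.18 log2 units, against 0.41 to 0.62 on the others, which is a common sign of degraded RNA. Its endothelial markers averaged 6.50 log2 units against 4.29 on its replicate, and its macrophage markers 11.70 against 12.16. Why this array stood apart was not tested. It is not in the main comparison and was left out of the comparison without hormone. Sex-linked transcripts went against the label male. Xist, the RNA of the inactive X chromosome, lay between 12.05 and 12.27 log2 units on all 8 arrays, the Y-linked Uty between 2.85 and 3.11 and the Y-linked Kdm5d between 3.41 and 3.92. Eif2s3y, also Y-linked, lay between 4.31 and 5.60 on 7 arrays and at 10.06 on the array that stood apart. None of the 4 was called between the hormone-treated genotypes. Macrophage markers (Csf1r, Cd68, Adgre1 and 6 more measured) averaged 12.39 and 12.40 log2 units in control and 12.38 and 12.40 in knockout cells with hormone, so the labelled cell type matched its markers in both groups.

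The targeted gene was lower in the knockout samples, though not absent from the signal. Nr3c2 stood at 6.39 and 6.13 log2 units in the 2 control samples and at 5.11 and 5.47 in the 2 knockout samples. The groups did not overlap, as in 42.0% of all genes, and the difference was -0.97 (SE 0.16, limma adjusted p = 0.0108 over all genes). The call was lost without control cort replicate 1 (adjusted p = 0.155), without control cort replicate 2 (0.0558) and without KO cort replicate 1 (0.113), each time with the same direction, and also without the variance trend (0.239). A single probe set stands for the gene, and where it lies in relation to the floxed exons is not stated. Without hormone the difference was -0.71, which limma did not call (adjusted p = 0.161). Lyz2, the gene whose regulatory region drives the recombinase, was at 13.65 and 13.66 in control and at 13.62 and 13.59 in knockout cells, a difference of -0.05 that was not called. The glucocorticoid receptor Nr3c1 held 11.11 and 11.07 against 11.05 and 11.09.

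In all, 490 genes were called at a limma adjusted p under 0.05, which is 2.69% of the 18193 tested. Of these 372 (2.04%) were higher and 118 (0.649%) were lower in the knockout. Increases were also larger. Their median difference was 0.64 log2 units, 95 of them (0.522% of all genes) reached 1 unit, and their median control level was 7.61 against 7.22 for all genes. Decreases had a median difference of -0.29, 7 of them (0.0385%) reached 1 unit, and they came from bright genes with a median control level of 10.1. The direction of this split reversed when each array was set to the same median over genes, with 336 genes called higher and 588 lower. That centring shifted the differences by 0.08 log2 units. It moved the median difference over all genes from 0.0001 to -0.08, and left 4023 of 18193 genes above 0, against 9107 before it. Further quantile normalization kept the direction, with 326 higher and 134 lower. The number of calls also depended on single arrays. It was 202 without control cort replicate 1, 222 without control cort replicate 2, 204 without KO cort replicate 1 and 387 without KO cort replicate 2, with increases in the majority each time. Without a trend of variance on level in limma 52 genes were called, and with all 8 arrays in 1 fit, the array that stood apart included, 0 were (229 at an unadjusted p under 0.05). An exact permutation test of a single gene with 2 against 2 samples cannot go below p = 0.333, so every call rests on limma's sharing of variance between genes.

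**Figure D1:**
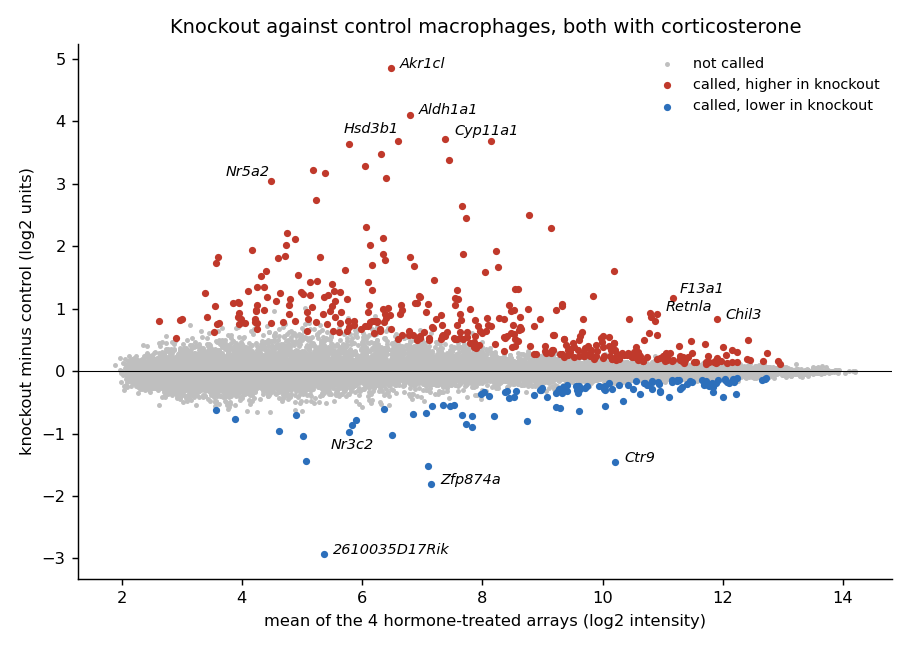
Difference between knockout and control macrophages, both with corticosterone (vertical axis, log2 units), against the mean level over the 4 arrays (horizontal axis, log2 intensity), 1 point per gene for 18193 genes. The 372 red points are called higher and the 118 blue points lower in the knockout at a limma adjusted p under 0.05. The increases reach 4.85 log2 units and have a median control level of 7.61, against 7.22 for all genes. Most decreases are small and come from bright genes, with a median control level of 10.1.

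The largest increases included enzymes that make or modify steroids and retinoids. Akr1cl, an aldo-keto reductase of the family that reduces steroids, was at 4.48 and 3.64 log2 units in control and at 8.85 and 8.97 in knockout cells. This difference of 4.85 (SE 0.22, limma adjusted p = 6.8e-07), or 28.8-fold, was the largest of all genes tested. Its other probe set, which was dim at a mean of 2.59, differed by 0.39. Cyp11a1, the side-chain cleavage enzyme that turns cholesterol into pregnenolone, was at 5.72 and 5.33 in control and at 9.30 and 9.19 in knockout cells (difference 3.72, SE 0.13, limma adjusted p = 1.3e-07). Its other 2 probe sets differed by 0.15 and -0.15, so the increase was seen by the brightest probe set alone. Hsd3b1, which oxidises pregnenolone to progesterone, was at 3.67 and 4.26 against 7.60 and 7.62 (difference 3.64, SE 0.19, adjusted p = 1.7e-06). In each of these 3 genes both knockout samples lay more than 3 log2 units above both controls. The same was true of Aldh1a1, a retinaldehyde dehydrogenase that makes retinoic acid, with 4.80 and 4.67 in control and 8.83 and 8.85 in knockout cells (difference 4.10, SE 0.11, limma adjusted p = 4.0e-08).

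The promoters of these 4 enzymes are shown with those of the 2 largest decreases, 2610035D17Rik and Zfp874a, because these are the enzymes just described and the genes that fell most. Each is the 250 bases before a start in RefSeq, in build GRCm38.p6, written 5′ to 3′ along the gene. Matches are in capitals. Searched on either strand were AGAACA, a single arm of the steroid receptor element, and TGANTCA, an AP-1 site. So was AAGGTCA, a site of the NR5A receptors, while TATAAA was searched on the written strand alone. For Aldh1a1 and Cyp11a1 the table holds 2 starts, and the arrays do not tell which start was used.
Akr1cl, chr1:65032760-65033009, minus strand: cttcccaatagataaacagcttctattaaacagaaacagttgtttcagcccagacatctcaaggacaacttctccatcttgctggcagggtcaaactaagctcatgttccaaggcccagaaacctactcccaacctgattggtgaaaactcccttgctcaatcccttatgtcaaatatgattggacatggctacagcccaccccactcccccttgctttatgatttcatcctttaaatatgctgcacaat
Hsd3b1, chr3:98859795-98860044, minus strand: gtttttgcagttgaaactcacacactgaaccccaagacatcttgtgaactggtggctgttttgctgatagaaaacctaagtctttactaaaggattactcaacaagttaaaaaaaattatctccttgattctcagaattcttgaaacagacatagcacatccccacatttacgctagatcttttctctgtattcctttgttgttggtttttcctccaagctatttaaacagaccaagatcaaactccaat
Cyp11a1, chr9:58014702-58014951, plus strand: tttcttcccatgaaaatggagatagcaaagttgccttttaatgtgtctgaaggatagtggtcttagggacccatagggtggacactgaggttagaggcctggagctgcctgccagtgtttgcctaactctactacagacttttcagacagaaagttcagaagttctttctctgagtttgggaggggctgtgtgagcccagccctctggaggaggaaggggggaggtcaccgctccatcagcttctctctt
Aldh1a1, chr19:20492333-20492582, plus strand: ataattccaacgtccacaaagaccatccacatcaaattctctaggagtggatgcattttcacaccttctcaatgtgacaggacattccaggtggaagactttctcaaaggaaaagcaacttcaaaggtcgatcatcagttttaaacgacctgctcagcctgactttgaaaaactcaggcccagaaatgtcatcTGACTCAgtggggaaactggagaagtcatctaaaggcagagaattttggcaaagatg
Aldh1a1, chr19:20601718-20601967, plus strand: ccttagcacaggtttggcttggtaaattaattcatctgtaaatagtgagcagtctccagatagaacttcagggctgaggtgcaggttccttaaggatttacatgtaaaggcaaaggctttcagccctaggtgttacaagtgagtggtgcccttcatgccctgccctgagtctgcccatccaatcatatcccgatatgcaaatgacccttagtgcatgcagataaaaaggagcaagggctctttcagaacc
2610035D17Rik, chr11:113201839-113202088, minus strand: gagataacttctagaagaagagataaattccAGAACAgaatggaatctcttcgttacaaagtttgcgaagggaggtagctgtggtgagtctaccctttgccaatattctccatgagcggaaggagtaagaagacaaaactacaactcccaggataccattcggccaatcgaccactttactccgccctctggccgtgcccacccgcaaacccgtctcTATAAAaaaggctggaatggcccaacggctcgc
Zfp874a, chr13:67451625-67451874, minus strand: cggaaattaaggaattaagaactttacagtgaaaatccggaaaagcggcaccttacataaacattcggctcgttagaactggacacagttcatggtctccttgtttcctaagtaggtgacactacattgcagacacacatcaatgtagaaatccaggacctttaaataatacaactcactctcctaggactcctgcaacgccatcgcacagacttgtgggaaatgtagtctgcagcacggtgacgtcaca
The Akr1cl, Hsd3b1, Cyp11a1 and Zfp874a windows and the downstream Aldh1a1 window hold none of these motifs. The upstream Aldh1a1 window holds 1 match to TGANTCA. The 2610035D17Rik window holds 1 AGAACA and 1 TATAAA. Of the 15 largest increases 13 have an entry and 2 of these hold AGAACA, and of the 15 largest decreases 13 have an entry and 5 hold it. Of the 14452 tested genes with a promoter in the table, 14.7% hold AGAACA. The share was 14.5% among 283 genes called higher and 18.7% among 91 genes called lower. AAGGTCA stood in 4.17% of all promoters, 3.89% of those called higher and 3.30% of those called lower. TGANTCA stood in 6.70%, 6.71% and 11.0%. TATAAA, a motif added after the values were seen, stood in 6.73%, 5.65% and 6.59%. The complete steroid receptor element was found in 2 of the 14452 windows and in none of the called genes. A match describes these letters only and says nothing of whether a receptor was bound.

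The other 11 of the 15 largest increases covered signalling, matrix and nuclear proteins, and every one of the 15 kept its call with each of the 4 arrays left out. Inha, the alpha subunit of inhibin, was at 3.19 and 3.96 log2 units in control and 6.87 and 6.73 in knockout cells (difference 3.23, SE 0.22). Nr5a2, the orphan receptor LRH-1 that switches on steroid enzymes, was at 2.95 and 2.96 against 5.94 and 6.06 (difference 3.05, SE 0.14), and its other 3 probe sets differed by 1.53, 0.42 and 0.35. Greb1, an oestrogen-regulated gene, differed by 3.17, with 1.13, 0.22 and 0.05 by its other probe sets. These 3 genes were near the bottom of the signal range in control cells, at 4.08 or below. Ephx2, the soluble epoxide hydrolase that degrades epoxides of arachidonic acid, differed by 3.38. Pdk4, a kinase that shuts pyruvate out of the mitochondrial cycle, differed by 2.65. Cemip, a protein of hyaluronan breakdown, differed by 3.47 on its brightest probe set and by -0.06 and -0.18 on the other 2. Hs6st2, which sulfates heparan chains, differed by 3.09, with 0.77, 0.50 and -0.15 on its other probe sets. Nrn1, encoding neuritin, differed by 3.69, and Ankrd1, an ankyrin repeat protein of stressed muscle, by 3.69 and by 2.65 on its other probe set. Bex4, a small X-linked protein, differed by 3.28. Smarca1, a chromatin remodelling ATPase, was at 3.99 and 3.74 in control and at 6.59 and 6.63 in knockout cells, a difference of 2.75. Both knockout samples were above both controls in each of these genes, which the choice of the 15 required. Groups of replicates stayed apart in 42.0% of all genes tested.

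All 15 were also called higher in the knockout without hormone, with a median difference there of 3.23 log2 units. On the array that stood apart, a control without hormone, 7 of the 15 were over 2 log2 units higher than on its replicate, Inha, Pdk4 and Smarca1 among them, and another 7 were within 1 unit. Among all 372 genes called higher, 155 (41.7%) were over 2 units higher on that array than on its replicate, against 8.81% of all genes and 2.54% of those called lower. The part of this in the result was not tested.

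**Figure D2:**
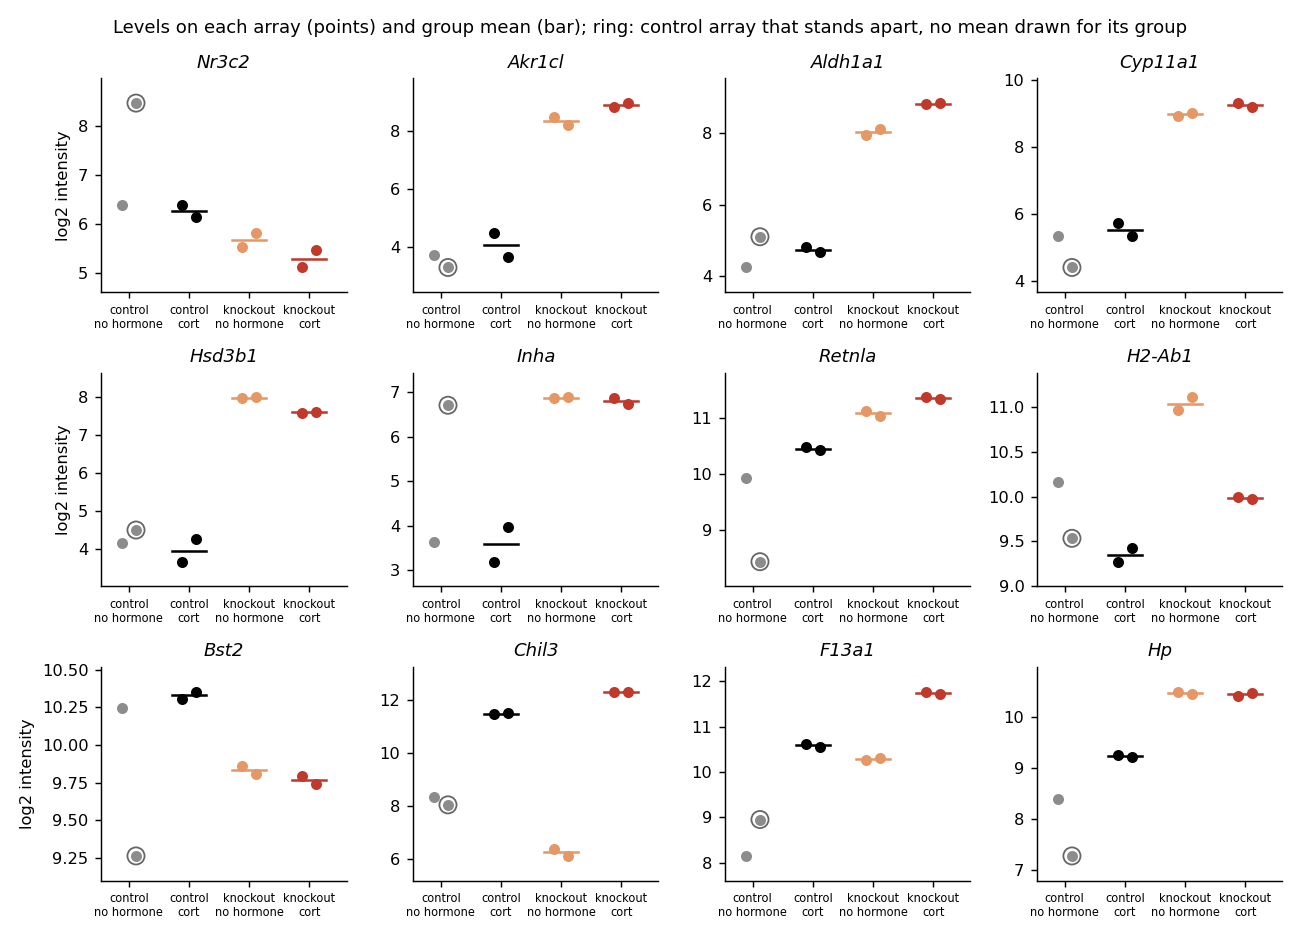
Level on each of the 8 arrays (points, log2 intensity) of 12 genes in the 4 groups, with a bar at the mean of each group. The ring marks control untreated replicate 2, the array that stands apart, and no mean is drawn for its group. Akr1cl, Aldh1a1, Cyp11a1, Hsd3b1 and Inha are 3.23 to 4.85 log2 units higher in knockout than in control samples with hormone.

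Most members of the wider families of these enzymes were not called. The share called higher was still above the 2.04% of all genes in each list of this paragraph, while 0.649% of all genes were called lower. Of 18 measured genes of steroid synthesis 2 were called higher, Cyp11a1 and Hsd3b1, and none was lower, with a median difference of 0.04 against 0.00 over all genes (2 higher and 3 lower after centring, in which the median over all genes is -0.08). Star, the protein that carries cholesterol into mitochondria, was at 6.33 and 6.50 in control and at 6.44 and 6.54 in knockout cells, a difference of 0.08 that was not called. Of 20 retinoic acid genes 3 were called higher, a count of 1 without KO cort replicate 1 or control cort replicate 1 and of 2 without either of the other arrays. Crabp2, which carries retinoic acid to the nucleus, differed by 0.85, a call that was lost without control cort replicate 1 (adjusted p = 0.140), KO cort replicate 1 (0.157) or KO cort replicate 2 (0.0908). Of 27 detoxification genes 3 were called higher and 1 lower (2 and 3 after centring). Cyp1b1, an oxidase of oestrogens and xenobiotics, was at 7.51 and 7.33 in control and 9.07 and 9.12 in knockout cells (difference 1.67, SE 0.08, limma adjusted p = 1.1e-06). Of 19 antioxidant genes 2 were called higher, the secreted peroxidase Gpx3, by 0.93, and Cdo1, a cysteine dioxygenase, by 0.49. The median of that list was 0.00, and centring left 2 higher and made 2 lower.

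Other members of the activin system were higher as well as Inha. Of 21 measured genes of inhibin, activin and follistatin 4 were called higher and none lower, with a median difference of 0.10. Among all genes tested 2.04% were called higher. Inhba, the subunit of activin A, was at 5.79 and 4.79 log2 units in control and 7.39 and 7.45 in knockout cells (difference 2.13, SE 0.25, limma adjusted p = 0.00107). Fst, encoding follistatin, the secreted inhibitor that binds activin, was at 6.06 and 5.72 against 7.79 and 7.62 (difference 1.82, SE 0.14, adjusted p = 3.5e-05). Ligand and inhibitor were thus both called higher in the knockout, and both were also called without hormone. Inhbb, the subunit of activin B, differed by 0.92, but its call was lost with any 1 of the 4 arrays left out (adjusted p from 0.0694 to 0.309).

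Several of these genes are known from the ovary, where granulosa and luteal cells use Cyp11a1, Hsd3b1, Nr5a2 and the inhibin subunits. In a list of such genes that was chosen after the values had been seen, 10 of 18 measured members were called higher and none lower, with a median of 0.86. The count was 7 or 8 with 1 array left out, and 8 of the members were also called higher without hormone. The choice of members fixes this direction, so the counts are a description only. The mean level over the list was 4.79 and 4.82 log2 units in control and 6.15 and 6.11 in knockout cells. Foxl2, a transcription factor of granulosa cells, was at 3.35 and 3.61 against 4.33 and 4.49 (difference 0.93), near the bottom of the signal range. Its call was lost without KO cort replicate 1 (adjusted p = 0.0582), KO cort replicate 2 (0.0697) or control cort replicate 1 (0.119). Amh, Fshr, Esr2, Hsd17b1, Nr0b1 and Star, further genes of those cells, were not called, and Fshr lay between 2.82 and 3.39 on the 4 arrays. The markers of steroid-making cells of adrenal or gonad, a separate list, had 2 of 9 called higher (3 higher and 1 lower after centring), against 2.04% of all genes. The 2 were again Cyp11a1 and Hsd3b1. Whether RNA of another cell type takes part in these increases was not tested.

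Most markers of macrophages and of the other cell types listed were not called. Over all genes 2.04% were called higher and 0.649% lower. None was called among 9 measured dendritic cell, 8 B cell, 10 T and NK cell, 8 neutrophil, 5 eosinophil and 8 endothelial markers. Of 9 macrophage markers 1 was called higher, Cd14 (0.16), lost without KO cort replicate 1 (adjusted p = 0.0680) or KO cort replicate 2 (0.0604). Of 10 mast cell and basophil markers 1 was called higher, the tryptase Tpsb2 (0.44), lost without KO cort replicate 2 (adjusted p = 0.120), control cort replicate 1 (0.119) or control cort replicate 2 (0.245). Of 7 erythroid and platelet markers 1 was called lower, platelet factor Pf4 (-0.20), lost without KO cort replicate 1 (0.134), KO cort replicate 2 (0.126) or control cort replicate 1 (0.134). Of 14 markers of mesothelial cells and fibroblasts 1 was called higher, but 13 lay above 0, with a median of 0.21. Their mean level was 6.59 and 6.50 in control and 6.89 and 6.66 in knockout cells, and 8.02 on the array that stood apart. The called member was Col1a2, a chain of type I collagen, at 0.57, a call lost without control cort replicate 1 (adjusted p = 0.0951), control cort replicate 2 (0.280) or KO cort replicate 1 (0.165). In samples of many cells, fewer cells of a type and less RNA per cell cannot be told apart. Of 10 markers of resident peritoneal macrophages 2 were called lower. These were Lyve1, a hyaluronan receptor, by -0.32, lost with any 1 array left out (adjusted p from 0.0502 to 0.330), and Tgfb2, a growth factor, by -0.25, lost without KO cort replicate 1 (0.284), control cort replicate 1 (0.125) or control cort replicate 2 (0.369).

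Matrix genes were called mostly higher. Of 26 measured genes of the matrix and its proteases 6 were called higher and none lower, with a median of 0.20 (7 higher and 2 lower after centring, with a median of 0.12). Among all genes 2.04% were called higher and 0.649% lower. Col4a1 and Col4a2, the paired chains of basement membrane collagen, differed by 1.31 (SE 0.09) and 1.18 (SE 0.12). Col4a1 was at 7.94 and 7.92 in control and 9.39 and 9.09 in knockout cells. Adamts1, a secreted protease, differed by 0.74, and fibronectin, Fn1, by 0.43. The array that stood apart was over 2 log2 units above its replicate for 15 of the 26. Among 22 growth and fibrogenic factor genes 5 were called higher and 1 lower, or 5 and 2 after centring. With 1 array left out the higher calls were 1 without KO cort replicate 1, control cort replicate 1 or control cort replicate 2, with no lower call, and 6 without KO cort replicate 2. Ccn1, a matrix-bound growth regulator, was at 7.86 and 7.89 in control and 9.38 and 9.02 in knockout cells (difference 1.32, SE 0.10, limma adjusted p = 4.9e-05). Its relative Ccn2 differed by 0.64, a call lost without KO cort replicate 1 (adjusted p = 0.0721), control cort replicate 1 (0.100) or control cort replicate 2 (0.135).

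Cell cycle genes formed the list with the most calls. Of 32 measured members 16 were called higher and none lower, 31 lay above 0, and the median difference was 0.32. Over all genes tested 2.04% were called higher and 0.649% lower, and 9107 of 18193 lay above 0. Ccnd2, a D-type cyclin that starts the cycle, was at 7.94 and 7.89 in control and 9.09 and 8.85 in knockout cells (difference 1.06, SE 0.09, limma adjusted p = 6.4e-05), and all of its 7 probe sets were higher, by 0.52 to 1.34. Rrm2, a subunit of the enzyme that makes deoxynucleotides, differed by 0.61, and Ccnd1 by 0.29. Bub1, a kinase of the mitotic checkpoint, was at 5.07 and 4.94 against 6.52 and 6.02 (difference 1.26), and its call was lost without control cort replicate 2 (adjusted p = 0.0564). KO cort replicate 1 was the higher knockout sample in each of the 4 genes. The list's mean level was 8.38 on that array and 8.24 on the other knockout array, against 7.91 and 7.88 in control cells. The count of members called was 5 without KO cort replicate 1, 14 without KO cort replicate 2, 5 without control cort replicate 1 and 6 without control cort replicate 2. Among all genes called higher, 69.6% were higher on KO cort replicate 1 than on replicate 2, against 53.5% of all genes. For 8 of the 32 cell cycle genes the array that stood apart was over 2 log2 units above its replicate. Without hormone 9 members were called higher.

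Macrophage activation genes changed in both directions. Over all genes tested 2.04% were called higher and 0.649% lower. Of 29 measured genes of alternative activation, the state driven by interleukin 4, 8 were called higher and 3 lower, with a median of 0.06 (6 higher and 7 lower after centring, with a median of -0.03). With 1 array left out 6 to 8 were higher, and the lower calls were 0 without KO cort replicate 1 or control cort replicate 1 and 1 without KO cort replicate 2 or control cort replicate 2. Retnla, the secreted protein RELM-alpha that marks this state, was at 10.48 and 10.42 log2 units in control and 11.37 and 11.35 in knockout cells (difference 0.91, SE 0.04, limma adjusted p = 2.2e-07). Chil3, the chitinase-like protein Ym1, was at 11.46 and 11.50 against 12.31 and 12.32 (difference 0.84, SE 0.03, adjusted p = 1.3e-07). Ccl17, a chemokine that draws T cells, was at 7.93 and 7.79 against 8.78 and 8.64 (difference 0.85, SE 0.08, adjusted p = 2.4e-04). In each of the 3 both knockout samples were above both controls, while groups stayed apart in 42.0% of all genes. Arg1, the arginase that competes for the substrate of nitric oxide synthase, rose by 0.39 (SE 0.05, adjusted p = 0.00143). In the other direction Mrc1, the mannose receptor, differed by -0.17, a call lost with any 1 array left out (adjusted p from 0.0769 to 0.115). The chemokine Ccl8 was at 5.09 and 5.09 in control and 3.88 and 4.39 in knockout cells (difference -0.96, SE 0.18, adjusted p = 0.0202). Its call was lost without control cort replicate 1 (adjusted p = 0.157), control cort replicate 2 (0.161) or KO cort replicate 1 (0.165).

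Genes of classical activation gave fewer calls. Of 33 measured members 3 were called higher and none lower, against 2.04% and 0.649% of all genes, with a list median of 0.12. The count was 1 without KO cort replicate 1, control cort replicate 1 or control cort replicate 2. Marco, a scavenger receptor for bacteria, was at 10.50 and 10.45 in control and 11.25 and 11.30 in knockout cells (difference 0.80, SE 0.04, limma adjusted p = 6.8e-07). The monocyte chemokine Ccl2 differed by 0.17, a call lost with any 1 array left out (adjusted p from 0.0608 to 0.187). Of 28 interferon-stimulated genes 3 were called lower and none higher, 23 lay below 0, and the median was -0.11 (9 lower after centring, with a median of -0.19, and 1 without control cort replicate 2). Bst2, or tetherin, which holds viruses at the cell surface, was at 10.30 and 10.35 against 9.79 and 9.74 (difference -0.56, SE 0.04, adjusted p = 5.0e-05). Bst2 is also among the neighbours of Nr3c2 described further on. Oas3, which makes the trigger of RNase L, differed by -0.33, lost without KO cort replicate 1 (adjusted p = 0.0862) or control cort replicate 2 (0.0548). Rsad2, an antiviral enzyme, differed by -0.28, lost without KO cort replicate 2 (0.0931), control cort replicate 1 (0.103) or control cort replicate 2 (0.218).

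Genes that present peptides on MHC class II were called higher or not at all. Over all genes tested 2.04% were called higher and 0.649% lower. Of 12 measured members 5 were called higher and none lower, with a median of 0.23, and 4 of the 5 kept the call with each array left out. H2-Ab1, the class II beta chain, was at 9.27 and 9.42 in control and 9.99 and 9.97 in knockout cells (difference 0.63, SE 0.06, limma adjusted p = 1.4e-04). Its partner H2-Aa differed by 0.53, the beta chain H2-Eb1 by 0.56 and the invariant chain Cd74 by 0.49. The groups did not overlap in any of the 4, nor did they in 42.0% of all genes. Ciita, the coactivator that switches these genes on, differed by 0.11 and was not called. B cells also express these genes, and the mean level of 8 B cell markers was 6.73 and 6.72 in control and 6.79 and 6.78 in knockout cells. That of 9 dendritic cell markers was 4.84 and 4.72 against 5.01 and 4.97. Of these 9, 7 lay above 0, with a median of 0.19 and none called, and 7 were under 5 log2 units in each group. Whether the mix of cells takes part in the class II increase was not tested.

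Of 33 chemokine and chemokine receptor genes 10 were called higher and 2 lower (9 and 4 after centring), against 2.04% and 0.649% of all genes. The list's median difference was 0.13. The higher calls were 4 without KO cort replicate 1, 6 without KO cort replicate 2, 6 without control cort replicate 1 and 3 without control cort replicate 2, and Ccl17, Cxcl14 and Cxcl16 kept their calls in all 4 of these fits. Cxcl14 differed by 0.58 (SE 0.04) and Cxcl16, a chemokine that is also a scavenger receptor, by 0.45 (SE 0.04), and both kept the call with each array left out. Cx3cr1, the fractalkine receptor of monocytes, was at 5.83 and 5.20 against 6.99 and 6.64 (difference 1.30), lost without KO cort replicate 1 (adjusted p = 0.135) or control cort replicate 2 (0.0572). In the complement list 3 of 17 were called higher and 1 lower, with a median of -0.04 (2 and 3 after centring). Cfb, factor B of the alternative pathway, was at 8.75 and 8.72 in control and 9.69 and 9.73 in knockout cells (difference 0.97, SE 0.05, limma adjusted p = 2.8e-06). C1s1, a protease of the classical pathway, differed by 1.54 (SE 0.16). Of 19 coagulation genes 3 were higher and 1 lower, with 1 higher and none lower without control cort replicate 1. The transglutaminase subunit F13a1, which crosslinks fibrin, was at 10.61 and 10.56 against 11.78 and 11.73 (difference 1.17, SE 0.03, adjusted p = 6.1e-08).

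Genes for the uptake of dying cells were called in both directions. Among all genes 2.04% were called higher and 0.649% lower. Of 25 measured members 4 were called higher and 2 lower, with a median of 0.00 (2 and 3 after centring). The higher calls were 2 without KO cort replicate 1 or control cort replicate 1. Axl, a receptor tyrosine kinase of this system, was at 8.04 and 8.25 in control and 8.96 and 8.80 in knockout cells (difference 0.73, SE 0.09, limma adjusted p = 0.00112). Mfge8, a secreted bridge between dying cells and integrins, was at 12.40 and 12.41 against 12.04 and 12.05 (difference -0.36, SE 0.03, adjusted p = 2.1e-05). Itgb3, an integrin subunit that Mfge8 binds, was at 9.53 and 9.65 against 9.03 and 8.97 (difference -0.59, SE 0.06, adjusted p = 3.2e-04). Mfge8 and Itgb3 were both also called lower without hormone. Another integrin subunit of the list, Itgb5, was called in the other direction, by 0.15, a call lost with any 1 array left out. Among 19 Toll-like receptor genes 2 were higher, with Tlr2 at 0.39 (SE 0.05), or 1 higher and 1 lower after centring, and 1 higher without KO cort replicate 1 or KO cort replicate 2. Among 18 cathepsin genes 1 was lower, Ctsk, at -0.33 (SE 0.04).

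Most known targets of the hormone receptors were not called. Of all genes tested 2.04% were called higher and 0.649% lower, and the glucocorticoid-induced list held larger shares of both. Of 37 measured glucocorticoid-induced genes 9 were called higher and 2 lower, with a median of 0.01 (6 and 6 after centring, with a median of -0.07). The counts were 7 higher and 1 lower without KO cort replicate 1 or KO cort replicate 2, 5 and 0 without control cort replicate 1, and 5 and 1 without control cort replicate 2. Fkbp5, a chaperone that corticosteroids induce, was at 11.93 and 11.97 log2 units in control and 12.07 and 12.07 in knockout cells with hormone, and at 8.08 in control and 8.45 and 8.45 in knockout cells without it. Its genotype difference of 0.12 with hormone lay just outside the threshold (limma adjusted p = 0.0509). Tsc22d3, or GILZ, differed by -0.08, Per1 by 0.03, Sgk1 by -0.04 and Cd163 by 0.06, and none was called. The called members were led by Pdk4 and F13a1, and included Ddit4, a brake on the growth kinase mTOR, by 0.34 (SE 0.03, adjusted p = 2.4e-04). Of 17 targets of the receptor in epithelia 1 was called, Usp2, a deubiquitinase, by 0.30, with a median of -0.01. That call was lost without KO cort replicate 1 (adjusted p = 0.139), control cort replicate 1 (0.0937) or control cort replicate 2 (0.198). Of 25 genes of cholesterol and fatty acid synthesis, 18 of metallothioneins and zinc transport and 25 of prostaglandins and leukotrienes, none was called, whereas centring called 7 lower in the first list, 3 lower in the second, and 2 higher and 1 lower in the third. Hsd11b1, which regenerates corticosterone, differed by 0.35, and Hsd11b2 by -0.39, neither called.

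**Figure D3:**
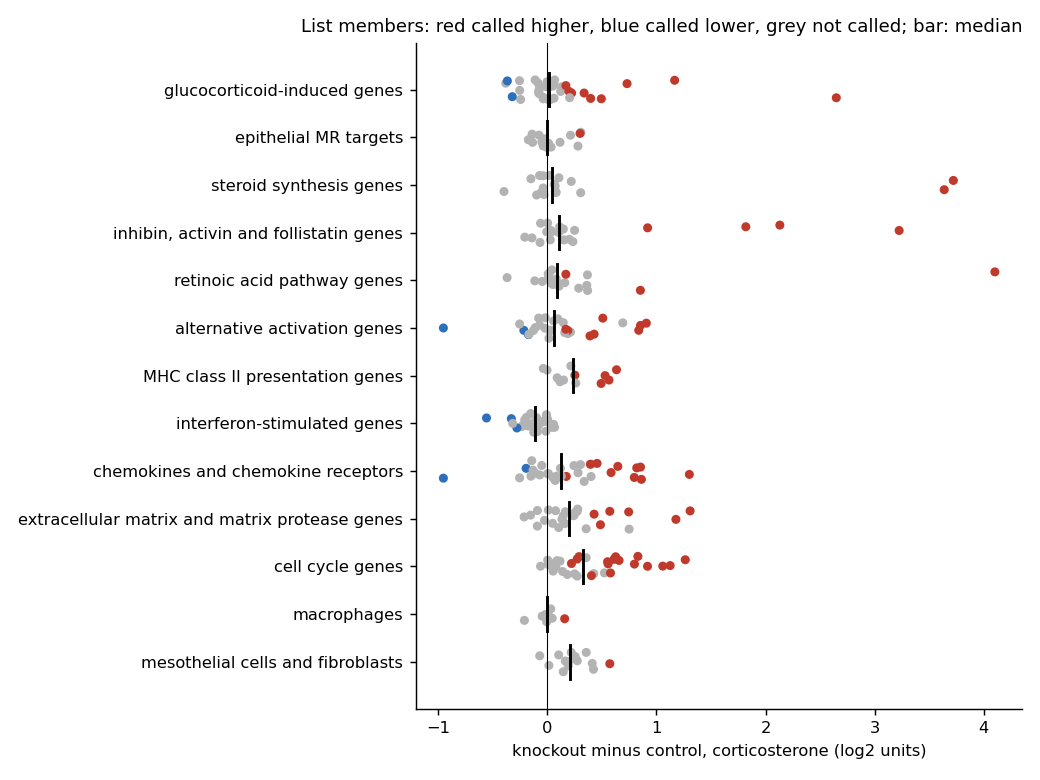
Difference between knockout and control macrophages with corticosterone (horizontal axis, log2 units) of each measured member of 13 gene lists (rows). Red members are called higher, blue lower and grey not called by limma, and the black bar is the list's median. The cell cycle list has the highest median of those drawn, 0.32, while the glucocorticoid-induced genes and the macrophage markers centre on 0.

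The largest decreases were in genes with little in common by function, though several lie close together on chromosome 8 or 13, as described further on. 2610035D17Rik, a transcript named only by its clone, was at 6.69 and 6.99 log2 units in control and 3.54 and 4.26 in knockout cells (difference -2.94, SE 0.22, limma adjusted p = 3.8e-05). Its other probe set, at a mean of 3.00, differed by -0.44. Zfp874a, a zinc finger protein, was at 8.15 and 7.96 against 6.31 and 6.18 (difference -1.81, SE 0.11, adjusted p = 7.8e-06). Rab6b, a GTPase of the Golgi, was at 7.71 and 7.99 against 6.47 and 6.19 (difference -1.52, SE 0.13), and its other 3 probe sets also differed downwards, by -0.79, -0.91 and -1.28. Ctr9, a subunit of the PAF1 elongation complex, was at 10.90 and 10.98 against 9.57 and 9.40 (difference -1.46, SE 0.06), but its other 4 probe sets differed by -0.06 to -0.25. Capn11, a calpain protease, differed by -1.43. Cdh1, E-cadherin, an adhesion protein of epithelia and of alternatively activated macrophages, was at 8.32 and 8.25 against 7.42 and 7.35 (difference -0.90, SE 0.08, adjusted p = 1.7e-04). Mgll, the lipase that degrades the endocannabinoid 2-arachidonoylglycerol, was at 9.14 and 9.15 against 8.33 and 8.34 (difference -0.81, SE 0.06). Cyp4f18, which inactivates leukotriene B4, was at 7.01 and 7.01 against 5.87 and 6.10 (difference -1.03, SE 0.13). The 2 control samples lay above both knockout samples in each of these genes. Rsl1, a zinc finger repressor of liver genes, differed by -0.84 on a probe set of the type that can match related genes, so it cannot be told apart from its close relatives.

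Of the 15 largest decreases, 8 were also called lower without hormone and all 15 had the same sign there. Besides Nr3c2 and Ccl8, 4 of the 15 lost their call with 1 array left out. Misp3 (-1.03) lost it without control cort replicate 2 (adjusted p = 0.102), KO cort replicate 1 (0.0941) or KO cort replicate 2 (0.0507). B3gnt3 (-0.86), which extends sugar chains with N-acetylglucosamine, lost it without control cort replicate 1 (0.119), control cort replicate 2 (0.0601) or KO cort replicate 2 (0.0550). Eps8l1 (-0.79), a regulator of actin, lost it without control cort replicate 1 (0.138), control cort replicate 2 (0.189) or KO cort replicate 2 (0.0945). Zan (-0.77), a sperm protein, lost it without control cort replicate 1 (0.162), control cort replicate 2 (0.300) or KO cort replicate 1 (0.315).

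Several genes that lie near Nr3c2 on chromosome 8 were called lower. Of the 80 tested genes within 40 genes of Nr3c2 on either side, 6 were called lower (7.5%, against 0.649% of all genes) and 4 higher (5.0%, against 2.04%), with a median difference of -0.02. The lower genes were Bst2, Colgalt1 (-0.29), which glycosylates collagen, B3gnt3, Cyp4f18, Smim7 (-0.42), a small membrane protein, and Rnf150 (-0.23), a ring finger protein. Smim7 was at 12.22 and 12.19 in control and 11.76 and 11.82 in knockout cells, and at 12.16 in control and 11.74 and 11.74 in knockout cells without it. Of the 6, 3 were called lower without hormone as well. The count of lower neighbours was 6 without KO cort replicate 1 and 4 without KO cort replicate 2, without control cort replicate 1 and without control cort replicate 2. That of higher neighbours (Niban3, Fam32a, Mcm5 and Gab1) was 1 without KO cort replicate 1, control cort replicate 1 or control cort replicate 2, and 3 without KO cort replicate 2. Niban3, at 0.61, was the one to keep its call in each fit, and Fam32a had the opposite sign with the mean of its probe sets. Over the whole of chromosome 8, 28 of 940 tested genes (2.98%) were called higher, against 2.04% of all genes, the highest share after chromosome 9 with 3.08%. Of the 940, 20 (2.13%) were called lower, the highest share of the 20 chromosomes that were counted, the next being chromosome 12 with 1.28%. The count on chromosome 8 was 13 without KO cort replicate 1, 11 without KO cort replicate 2, and 10 without control cort replicate 1 or control cort replicate 2. Around Lyz2 on chromosome 10, where the recombinase sits, none of 80 genes was called lower and 2 were called higher. These were Kcnmb4 (0.99), a potassium channel subunit, and Msrb3 (0.65), a methionine sulfoxide reductase. Just outside this window Pawr (1.87) and E2f7 (0.78), at places -45 and -41 in gene order from Lyz2, were also called higher. Over the whole of chromosome 10, 21 of 865 tested genes (2.43%) were called higher and 4 (0.462%) lower. Kcnmb4 lost its call without KO cort replicate 1 (adjusted p = 0.0757) or control cort replicate 1 (0.0870), and Msrb3 without KO cort replicate 1 (0.0838), control cort replicate 1 (0.0835) or control cort replicate 2 (0.142). A stretch of chromosome 13 from Prxl2c to Zfp874a, picked after the values were seen, held 5 lower genes of 23 tested and no higher one, namely Prxl2c (-0.64), Cdk20 (-0.30), Rsl1, Zfp429 (-0.54) and Zfp874a. With any 1 of the 4 arrays left out the count was 3, since Cdk20 (adjusted p from 0.0647 to 0.312) and Zfp429 (0.0616 to 0.344) lost their calls. A difference in the surrounding chromosome segment and an effect of the receptor's loss cannot be told apart for these genes. Of 5 measured genes known to vary between strains of mice, none was called. None of these lies among the neighbours or in the stretch described, so they cannot show a difference there.

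**Figure D4:**
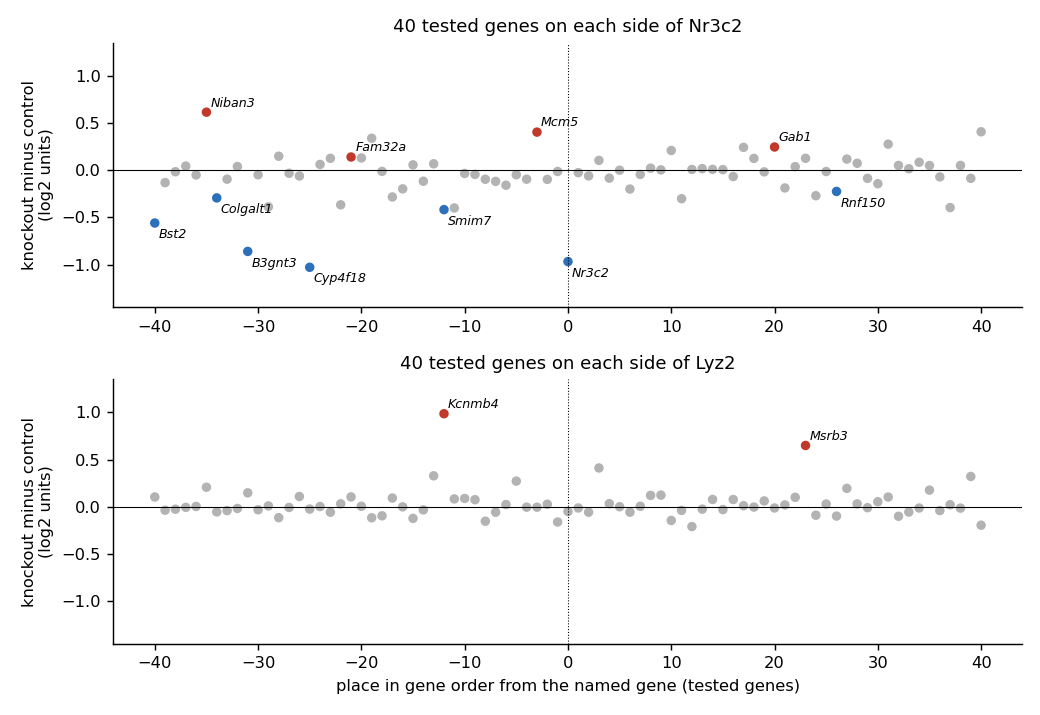
Difference between knockout and control macrophages with corticosterone (vertical axis, log2 units) of the 40 tested genes on each side of Nr3c2 (upper panel) and of Lyz2 (lower panel), in gene order (horizontal axis, number of tested genes from the named gene). Called genes are red (higher) or blue (lower) and named, and grey points are not called. Around Nr3c2, 6 neighbours besides Nr3c2 are lower and 4 higher, and around Lyz2 none is lower and 2 are higher.

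Most of these genes differed in the same direction without hormone, which was measured on separate arrays. Without hormone 261 genes (1.43%) were called higher and 101 (0.555%) lower, from the fit of 7 arrays, 362 in all (1.99%). Of the 372 genes called higher with hormone, 364 (97.8%) had the same sign without it, and of the 118 called lower, 109 (92.4%), against 61.4% of all genes. Called in both were 175 higher genes, which is 47.0% of the calls with hormone and 67.0% of those without, and 42 lower genes, which is 35.6% and 41.6%. Chil3 was the single gene called in opposite directions. The comparison without hormone has 1 control array, whose spread is taken to be that of the other groups. With the array that stood apart included, limma called 0 genes without hormone (807 at an unadjusted p under 0.05).

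A test of the difference between the genotype effects called 3 genes (0.0165%), and 1064 genes had an unadjusted p under 0.05. Chil3 was at 8.34 log2 units in the control array without hormone, at 6.39 and 6.12 in knockout cells without hormone, and at 11.46 and 11.50 against 12.31 and 12.32 with it. It was thus lower by 2.09 in untreated knockout cells and higher by 0.84 in treated ones, a difference between effects of 2.92 (SE 0.10, limma adjusted p = 3.4e-05). F13a1 was at 8.15 in control and 10.26 and 10.31 in knockout cells without hormone, so its genotype difference of 2.13 was larger there than the 1.17 seen with hormone, by 0.97 (adjusted p = 0.0011). Hp, haptoglobin, which binds free haemoglobin, was at 9.25 and 9.21 in control and 10.40 and 10.48 in knockout cells with hormone, a difference of 1.21, against 8.40 in control and 10.50 and 10.44 in knockout cells without hormone, a difference of 2.07 (change by -0.86, adjusted p = 0.0105). The call for Hp was lost without control cort replicate 1 (adjusted p = 0.249), control cort replicate 2 (0.176) or KO cort replicate 1 (0.0887), while Chil3 and F13a1 kept theirs with each of the 6 arrays left out that allowed a fit. Smarca1 differed by 2.75 with hormone and by 1.09 without, a change of 1.65 that the test did not call (adjusted p = 0.155).

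**Figure D5:**
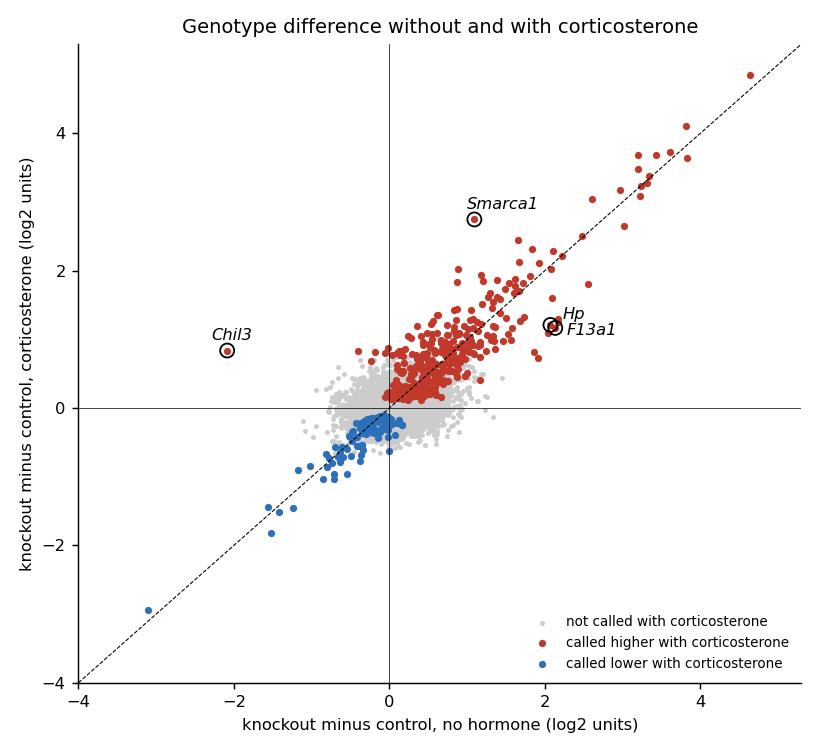
Genotype difference with corticosterone (vertical axis, log2 units) against that without hormone (horizontal axis, log2 units) for 18193 genes, with equal values on the dashed line. Red and blue points are called higher and lower with hormone. Chil3 alone of the called genes lies far into the upper left, at -2.09 without and 0.84 with hormone, and Hp, F13a1 and Smarca1 are circled beside it.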

How the data were processed

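The 8 arrays gave 4 groups of 2 samples by genotype and hormone. The deposited values are log2 intensities, made by the authors with RMA in R 2.7 per the submitters' processing notes. RMA corrects background, equalises the distributions of the arrays and gives 1 value per probe set. A level is thus relative to the rest of its array, and low levels are compressed. RNA was labelled by the NuGEN Ovation system per the labels. Array medians lay between 5.55 and 5.58. No genome build is named in the sources used here. Of 45101 probe sets, 64 controls, 932 with several genes and 9160 unnamed ones were left out. Of 34945 with 1 gene, 34741 were matched by identifier to the gene table of GRCm38.p6, which served for names and neighbours, and 204 kept an older symbol. Each of 18193 genes is represented by the brightest of its probe sets, by the mean of all 8 arrays, and 9010 genes had several.

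The 4 hormone-treated arrays were fitted alone with limma 3.58.1 in R 4.3.3 (lmFit, eBayes with a trend), with 2 residual degrees of freedom. P-values were adjusted by Benjamini-Hochberg over all genes and called under 0.05, with no minimum fold. The contrast without hormone and the interaction came from 7 arrays, without control untreated replicate 2. The number of arrays limits the precision, with a median SE of 0.102 log2 units. On simulated data of 18193 genes for the hormone-treated comparison, 33% of 100 genes changed by 0.5 log2 units and 59% of 100 changed by 1 were recovered, with 1 false call. Tables were handled with pandas 2.3.3 and numpy 2.4.6.

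Named genes were the 15 largest increases and 15 largest decreases among called genes with groups of replicates that stay apart (as they do in 7636 genes, 42.0%), up to 4 members of each list with the smallest p, a fixed set of receptor, hormone and marker genes, and genes called in the interaction. Gapdh was in that set and is not analysed here. Other members of lists and neighbours are named after their values were seen. The comparison, the lists and the rules were chosen with earlier results of these data known. Promoters are RefSeq's in build GRCm38.p6, cut to the 250 bases before the start. The alternatives were a variance without trend, robust variance, a filter on genes under 6 log2 units, further quantile normalization, centring, a replicate block, the mean of a gene's probe sets, fits of 8 arrays with and without array weights, a fit of 7 arrays, a minimum of 1 log2 unit, and leaving out each array.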

Additional observations from a re-analysis of the deposited data

Results flagged for a closer look

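In 3 genes the genotype difference with corticosterone departed from that without it, by a test of the difference itself in limma's fit of 7 arrays with adjustment over 18193 genes. Chil3, the chitinase-like protein Ym1, changed by 2.92 log2 units between the comparisons, from -2.09 without hormone to 0.84 with it. F13a1, the A chain of coagulation factor XIII, changed by -0.97, from 2.13 to 1.17, and haptoglobin, Hp, by -0.86, from 2.07 to 1.21. Both knockout samples lay on the same side of the control in each comparison. The untreated control is 1 array in this fit, so its own spread was not measured.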

How the results depend on the processing

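For the comparison with corticosterone (490 calls) the count moved with the variance model and the scaling. It was 52 without the variance trend (48 higher, 4 lower), 924 after centring each array on its median (336 higher, 588 lower), 296 with 7 arrays, 264 with 8 arrays and array weights, and 102 with a minimum of 1 log2 unit. Without the trend all 52 calls were among the 490, as were all 296 of the fit of 7 arrays. With 8 arrays unweighted, limma called 0 genes in this comparison and 0 in the others (229 genes with hormone, 807 without and 199 in the interaction had an unadjusted p under 0.05). With array weights it called 0 without hormone and 0 in the interaction (456 and 460 unadjusted). Leaving out 1 array gave 202 to 387 calls with hormone. Robust variance, the filter on dim genes, quantile normalization and the mean of probe sets gave 336 to 498 calls, of which 307 to 481 were among the 490. For the comparison without hormone (362 calls) the count was 65 without the trend and 99 with the minimum fold, and 183 to 927 with 1 array left out. It was 169 higher and 236 lower after centring. The interaction (3 calls) gave 0 without the trend (1084 unadjusted), 1 with the minimum fold and 2 to 8 with 1 array left out. Without control untreated replicate 1 the last 2 comparisons could not be fitted. The cause of these changes was not tested. With a replicate block there were 1114 calls with hormone, the 490 among them, 186 without hormone and 2 in the interaction, with 1 residual degree of freedom for the 4 arrays. The deviations of same-numbered samples correlated at 0.04, -0.01 and -0.23 for the 3 pairs of groups. With 2 samples per group these values cannot settle whether same-numbered samples were paired. Of the 490 called genes, 5 had the opposite sign with the mean of probe sets, Fam32a near Nr3c2 among them, and none under the other alternatives. Genes that were not called, such as Per1, Cd163 and Star, did change sign after centring, to -0.05, -0.03 and -0.004. Signal over background was not given, so dim genes, near 3 to 5 log2 units, are the least certain.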

Other observations

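Most genes of lipid handling, early response and the clock were not called in the same comparison. By limma 2 of 24, 2 of 24 and 1 of 18 measured members were called, against 2.69% of all genes. Apoc2, an activator of lipoprotein lipase, was higher by 0.38 (SE 0.03, limma adjusted p = 3.2e-05), and Abcg1, which exports cholesterol from macrophages, differed by -0.18, a call lost without control cort replicate 1 (adjusted p = 0.0581) or KO cort replicate 1 (0.0755). Ier3, an early response gene, was at 8.50 and 8.57 log2 units in control and 9.36 and 9.38 in knockout cells (difference 0.84, SE 0.06, adjusted p = 2.1e-05). The early response count was 1 without KO cort replicate 1, control cort replicate 1 or control cort replicate 2. Npas2, a clock transcription factor, differed by -0.67 as the single call among 18 clock genes, and lost it without KO cort replicate 1 (0.0941), KO cort replicate 2 (0.0595) or control cort replicate 1 (0.176). On chromosome 8 beyond the 40 nearest genes, Il27ra, a receptor subunit for interleukin 27, was at 8.53 and 8.59 in control and 7.83 and 7.86 in knockout cells, and Gpt2, a mitochondrial alanine transaminase, was at 11.29 and 11.33 against 10.92 and 10.89. Both were chosen after their values were seen.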
